A study of Mus musculus with 14 samples.

Results

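The stage by deletion interaction asks, gene by gene, whether libraries labelled mutant differed from their controls by the same amount when Cre recombinase was put into cortical progenitors and when it was active in postmitotic neurons. It was measured for the 24690 gene symbols that both count tables of the series hold, of 25229 symbols in the table of the progenitor experiment and 55353 in that of the postmitotic experiment. Of these, 15643 had enough counts to be tested. All 14 libraries of the series, in 4 groups, entered 1 fit. For each gene the progenitor effect is the log2 fold change of the progenitor libraries labelled mutant over their controls, the postmitotic effect is the same in the other experiment, and the difference is the progenitor effect minus the postmitotic effect.

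The study asked how loss of Lhx2 affects dendrite formation in upper-layer neurons of the mouse cortex, with the gene removed at 2 stages. Every library is polyA RNA from dissected layer II/III of mice at postnatal day 5, all homozygous for a floxed allele (Lhx2lox/lox), with cells marked by in utero electroporation of an EGFP plasmid. The 4 progenitor controls received EGFP at E15.5, and the 4 progenitor libraries labelled mutant received a Cre-EGFP plasmid instead. The 3 postmitotic controls were Lhx2lox/lox with EGFP, and the 3 postmitotic libraries labelled mutant were NexCre/+; Lhx2lox/lox with EGFP. No group was wild type. NexCre is Cre carried in the Neurod6 locus, which is active in excitatory neurons of the cortex, and was present in the mutant group alone, so Cre, the changed locus and the deletion cannot be told apart. The Cre-EGFP plasmid was likewise given to the progenitor mutant group alone, so Cre, its plasmid and the deletion cannot be told apart there. A plasmid reaches some of the cells and the tissue was cut out rather than sorted per the labels, so unmarked neighbours may be in every library. Stage cannot be told apart from the way Cre was delivered, nor from the experiment and its table, and levels were therefore not tested between tables. Nothing in the labels says that libraries came from separate animals, so the p-values measure the spread between libraries, which may be technical. In bulk RNA, fewer cells of a type and less RNA per cell cannot be told apart.

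LHX2 is a LIM-homeodomain transcription factor that helps to set cortical identity and keeps progenitors of the cortex dividing, and it stays on in upper-layer neurons after they leave the cycle. Its LIM domains bind the cofactors LDB1 and LDB2, a contact for which the LIM-only proteins (LMO) compete. Layer II/III neurons are late-born excitatory cells that, in the first postnatal week, extend dendrites, settle their projections and form their first synapses.

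Libraries held 22677019 to 29497595 counts in the progenitor table and 21605777 to 25891416 in the postmitotic table, of which the shared symbols took 99.2 to 99.3% and 94.3 to 94.7%. Values below are CPM, the count scaled to the library's total over the tested genes with TMM factors. Of the excitatory upper-layer markers, Cux2, an upper-layer factor, stood at 205 to 475 CPM over the 14 libraries. Markers of other cells were also present: Tbr1 of deep layers at 72.7 to 142 CPM, Gad1 of interneurons at 56.2 to 82.6 CPM, Aqp4 of astrocytes at 49.1 to 219 CPM, Olig1 of the oligodendrocyte lineage at 83.2 to 181 CPM, Cldn5 of endothelium at 42.0 to 83.4 CPM and Tmem119 of microglia at 1.75 to 6.67 CPM. None of the 33 markers was at 0 in any library. Y-linked reads marked 0 of 4 progenitor controls, 3 of 4 progenitor libraries labelled mutant, 2 of 3 postmitotic controls and 1 of 3 postmitotic libraries labelled mutant, so the sex of the pups moved with the labels in opposite directions in the experiments. Progenitor mutant 3 held both Y-linked reads (98.0 CPM) and Xist, a transcript of female cells (546 CPM), so RNA of both sexes may be in it. With Y-linked CPM as a covariate, the count of genes with a called difference was 316 in place of 1086, and 294 of the 1086 were among them. Of 31 genes with a called difference among 38 picked for a closer look, Neurod6 (adjusted p = 0.0732) and Slc17a6 (0.0516) lost the call with that covariate in edgeR's fit. Other genes seen to lose it are named beside their values. The covariate and the removal of single libraries were read gene by gene only for the 150 genes of the rule for named genes given below. Genes named outside that rule have no such value, so it is not known whether they kept the call.

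Lhx2 itself (chromosome 2, 38339281 to 38369733, plus strand of GRCm38) was measured at 128, 118, 136 and 118 CPM in the progenitor controls and at 125, 113, 138 and 135 CPM in the progenitor libraries labelled mutant. The postmitotic experiment had 161, 163 and 156 CPM in the postmitotic controls and 186, 199 and 201 CPM in the postmitotic libraries labelled mutant. The progenitor groups overlapped, and all 3 postmitotic libraries labelled mutant lay above all 3 controls. The progenitor effect was 0.02 ± 0.06 (SE), the postmitotic effect 0.29 ± 0.07 (adjusted p = 0.0555) and the difference -0.26 ± 0.10 (adjusted p = 0.106, edgeR's quasi-likelihood test, Benjamini-Hochberg adjusted over all tested genes). An exact two-sided permutation test of the labels within each experiment gave p = 0.0857 for the difference, where 1400 arrangements allow no p under 0.00143. Neither experiment thus showed a lower Lhx2 level, so the deletion is taken from the labels. A symbol's total does not show whether the floxed part is present, and Gm27197 and Gm13584 lie on the opposite strand.

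Neurod6, a neuronal basic helix-loop-helix factor and the locus that carries NexCre, was measured at 87.7, 97.4, 86.3 and 111 CPM in the progenitor controls and at 138, 185, 109 and 106 CPM in the progenitor libraries labelled mutant. The postmitotic experiment had 179, 188 and 192 CPM in the postmitotic controls and 138, 128 and 99.0 CPM in the postmitotic libraries labelled mutant, with no overlap between the groups. Neither effect passed the test alone (0.49 ± 0.17 and -0.61 ± 0.19), and the difference did, at 1.10 ± 0.26 (adjusted p = 0.0256, edgeR; exact permutation p = 0.00429). That call was lost without progenitor mutant 1 or any 1 of the 3 postmitotic controls (largest adjusted p 0.0560).

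More genes passed the test with Cre in progenitors than with NexCre, and most of them did not pass in both. At an adjusted p under 0.05, 3750 genes (24% of those tested) passed in the progenitor experiment, 1956 higher (12.5%) and 1794 lower (11.5%) in libraries labelled mutant. In the postmitotic experiment 261 genes passed (1.67%), 110 higher (0.703%) and 151 lower (0.965%). Both effects passed for 125 genes (0.799%), which is 3.33% of the progenitor calls and 47.9% of the postmitotic calls. The sign was the same in 102 of them (0.652%; 41 higher and 61 lower) and opposite in 23 (0.147%). The groups have 4 and 3 libraries, and effects had a median SE of 0.0939 (progenitor) and 0.110 (postmitotic). Libraries of the groups did not overlap for 26.3% of genes with Cre in progenitors and 16.8% with NexCre.

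The difference itself passed for 1086 genes (6.94%), positive in 601 (3.84%) and negative in 485 (3.10%), with 3644 genes at an unadjusted p under 0.05. Its median size among the called genes was 0.57 log2 units, and 235 of them (21.6%) exceeded 2-fold. Across the 15643 genes the effects had a Pearson r of 0.0307 and a Spearman rho of 0.0869, and the r over the 125 genes called in both was 0.637. These are descriptions across genes, which are not independent replicates. The count of differences moved by over 1.5 times without single libraries: to 698 without progenitor control 4, 718 without progenitor mutant 3, 598 without postmitotic control 1, 714 without postmitotic control 2 and 637 without postmitotic mutant 1. With library sizes alone for scaling, 67.4% of 1166 called differences were positive, against 55.3% here. The majority turned with DESeq2, where 49.0% of 1640 were positive, and without progenitor number 3 in both groups, where 49.7% of 1006 were.

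Sorting by the 3 tests gave 884 genes changed in the progenitor experiment with a called difference, 81 changed in the postmitotic experiment with a called difference, 102 shared changes and 23 opposite changes. A further 89 genes had a called difference with neither effect called. Another 2741 genes were called in the progenitor experiment without a called difference. These cannot be given to a stage, since a missed postmitotic call is not a test of the difference. Of the 884 genes, 490 were higher and 394 lower with Cre in progenitors, and for 640 the 95% interval of the postmitotic effect lay within 0.5 log2 units of 0. Of the 81 genes, 30 were higher and 51 lower in postmitotic libraries labelled mutant, and 62 had a progenitor interval within the same bound. The 884 fell to 541 without progenitor control 4, 564 without progenitor mutant 3, 492 without postmitotic control 1 and 524 without postmitotic mutant 1. The 81 went to 43 without postmitotic control 1, 43 without control 2, 46 without control 3, 51 without mutant 1, 43 without mutant 2 and 129 without mutant 3.

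**Figure D1:**
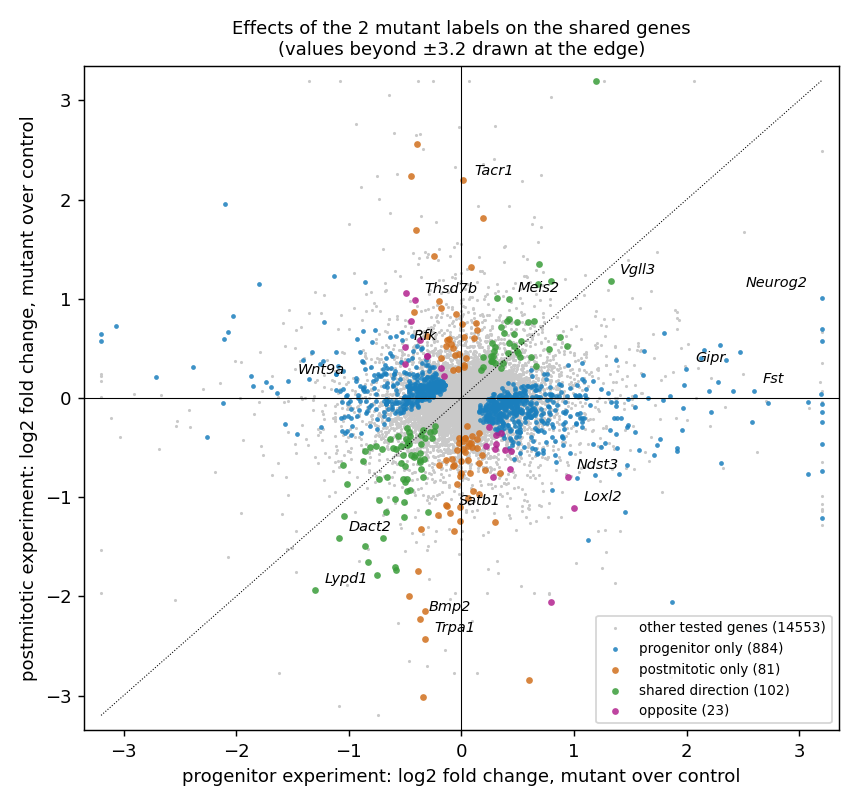
Progenitor effect (x axis, log2) against postmitotic effect (y axis, log2) for the 15643 genes tested, coloured by class, with values beyond 3.2 drawn at the edge and a dotted line where the effects are equal. The 884 progenitor genes lie along the horizontal axis, the 81 postmitotic genes along the vertical axis, the 102 shared genes near the dotted line and the 23 opposite genes in the other quadrants.

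Among genes that changed with Cre in progenitors were Neurog2, Gipr, Inhba and Wnt9a. Neurog2, the proneural factor of cortical progenitors, stood at 0.200, 0.375, 0.297 and 0.169 CPM in the progenitor controls and at 172, 118, 207 and 62.3 CPM in the progenitor libraries labelled mutant. In the postmitotic experiment it stood at 0.525, 0.727 and 0.453 CPM in the postmitotic controls and 1.32, 1.07 and 1.09 CPM in the postmitotic libraries labelled mutant. The progenitor groups lay far apart and the postmitotic groups did not overlap but stayed within about 1 CPM. The progenitor controls held 5, 10, 8 and 5 counts, so the fitted progenitor effect of 9.05 ± 0.51 depends on few counts in that group. The difference was 8.04 ± 1.48 (adjusted p = 0.0113, edgeR), and it missed the threshold without postmitotic control 2 (adjusted p = 0.0527).

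Gipr (chromosome 7, 19156061 to 19166127, minus strand), the receptor of the gut hormone GIP, had 14.96, 13.8, 14.4 and 14.004 CPM in progenitor controls and 66.5, 55.4, 53.5 and 52.6 CPM in progenitor libraries labelled mutant. It had 70.3, 63.7 and 65.6 CPM in the postmitotic controls and 82.1, 87.1 and 75.1 CPM in the postmitotic libraries labelled mutant. Groups did not overlap in either experiment, and the gap was far wider in the first. The effects were 1.99 ± 0.08 (adjusted p = 6.94e-11) and 0.29 ± 0.08 (adjusted p = 0.0969). Their difference of 1.70 ± 0.11 had the smallest adjusted p of all named genes (4.46e-07, edgeR), and the gene joined the shared class without progenitor mutant 1.

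Of 46 tested genes of the BMP, activin and follistatin list, 8 were higher and 5 lower with Cre in progenitors, near the 12.5% and 11.5% of all genes. A called difference was found for 9 (19.6%, beside 6.94% of all genes), 5 positive and 4 negative. Inhba, the subunit of activin A, had 32.8, 32.1, 37.7 and 25.3 CPM in the progenitor controls and 67.6, 59.9, 73.0 and 67.6 CPM in the libraries labelled mutant. In the postmitotic experiment it had 64.2, 52.9 and 60.2 CPM in controls and 48.6, 47.9 and 53.3 CPM in libraries labelled mutant. All progenitor libraries labelled mutant were above all controls, and the postmitotic groups overlapped. The difference of effects was 1.31 ± 0.15 (adjusted p = 0.000125, edgeR). Fst, follistatin, which binds and blocks activin, rose from 1.14 ± 0.633 CPM (SD, n = 4) to 6.95 ± 0.654 CPM (SD, n = 4), with a difference of 2.52 ± 0.33 against a postmitotic effect of 0.07 ± 0.23. Kcp, a secreted BMP modulator outside that list, rose with a difference of 1.28 ± 0.16. Outside the rule for named genes, the type I receptors Tgfbr1 and Acvr1 had differences of 0.73 ± 0.10 and 0.62 ± 0.09 in the same direction. The negative differences, also outside that rule, included those of the ligands Bmp3 (-1.11 ± 0.28) and Gdf10 (-0.65 ± 0.19) and the type I receptor Acvr1b (-0.34 ± 0.10).

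Wnt9a (chromosome 11, 59306928 to 59333552, plus strand), a Wnt ligand, fell with Cre in progenitors. It had 18.6, 18.04, 15.6 and 19.8 CPM in the progenitor controls and 6.10, 6.42, 5.40 and 6.92 CPM in the libraries labelled mutant. The postmitotic controls had 4.77, 4.57 and 4.68 CPM and the libraries labelled mutant 5.50, 5.07 and 5.24 CPM. No progenitor library labelled mutant reached the lowest control, while the postmitotic groups were under 1 CPM apart. The difference was -1.71 ± 0.16 (adjusted p = 1.55e-05, edgeR). Wnt4, another ligand, fell with a difference of -0.80 ± 0.19 (adjusted p = 0.0209), a call lost without postmitotic control 1 or 3 or postmitotic mutant 1. Wnt4 lost the called difference with Y-linked CPM as covariate (adjusted p = 0.159).

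Aacs, the cytosolic enzyme that turns acetoacetate into acetoacetyl-CoA for lipid synthesis, had 182, 177, 166 and 177 CPM in the progenitor controls and 86.3, 92.7, 89.1 and 81.8 CPM in the libraries labelled mutant. It stood at 186, 196 and 179.5 CPM in the postmitotic controls and 188, 165 and 191 CPM in the postmitotic libraries labelled mutant. The first groups were clearly apart and the second overlapped, with effects of -1.004 ± 0.06 and -0.05 ± 0.07 and a difference of -0.96 ± 0.09 (adjusted p = 1.31e-05, edgeR). Cdkn1a, the cell cycle inhibitor p21, fell from 36.1 ± 3.72 to 16.7 ± 2.95 CPM (SD, n = 4 each), and its postmitotic effect was 0.24 ± 0.13, a difference of -1.35 ± 0.17. Adra2a, the alpha-2A adrenergic receptor, differed by -1.42 ± 0.19, Lgi2, a secreted neuronal protein, by -0.94 ± 0.13 and Rasgrf1, a Ras exchange factor, by -1.35 ± 0.18. Nckap1, a subunit of the WAVE complex that drives actin branching, fell with a difference of -0.73 ± 0.10. Timp2, a metalloproteinase inhibitor, fell with a difference of -0.62 ± 0.09. All of these were lower in every progenitor library labelled mutant than in every control. Of the genes higher with Cre in progenitors, Nt5dc3 differed by 2.12 ± 0.23, Arhgef1, a guanine nucleotide exchange factor, by 0.81 ± 0.09, Plekhn1 by 1.45 ± 0.17 and Col15a1, a basement membrane collagen, by 1.21 ± 0.15. Il11ra1 differed by 2.21 ± 0.26 but has near-identical copies among which reads may be split.

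Slc17a7, Syn2 and Tbr1 also fell with Cre in progenitors and had called differences. Slc17a7, the vesicular glutamate transporter VGLUT1, had 498, 476, 371 and 529 CPM in the progenitor controls and 253, 298, 274 and 267 CPM in the libraries labelled mutant. It had 205, 229.8 and 225 CPM in the postmitotic controls and 253, 220.5 and 232 CPM in the postmitotic libraries labelled mutant. The first groups did not overlap and the second did. The difference was -0.88 ± 0.14 (adjusted p = 0.00156, edgeR). Syn2, a vesicle-coating synapsin whose gene holds Timp4 on the other strand, fell by 0.67 ± 0.07 against a postmitotic effect of -0.07 ± 0.08, a difference of -0.61 ± 0.10. Tbr1, a deep-layer and subplate T-box factor, passed as lower with Cre in progenitors at -0.35 ± 0.11 (adjusted p = 0.0262) and read 0.49 ± 0.12 in the postmitotic experiment (adjusted p = 0.0605), a difference of -0.85 ± 0.16 (adjusted p = 0.00755). It had 91.1, 122, 87.3 and 116 CPM in progenitor controls, 72.7, 94.1, 74.9 and 83.9 CPM in progenitor libraries labelled mutant, 92.3, 95.7 and 93.2 CPM in postmitotic controls and 142, 135 and 119 CPM in postmitotic libraries labelled mutant. The progenitor groups overlapped and the postmitotic groups did not. The called difference was kept without each of the 14 libraries, and the class in 6 of those 14 fits (it changed without progenitor control 1, 2, 3 and 4, progenitor mutant 1, 2 and 3 and postmitotic mutant 3).

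**Figure D2:**
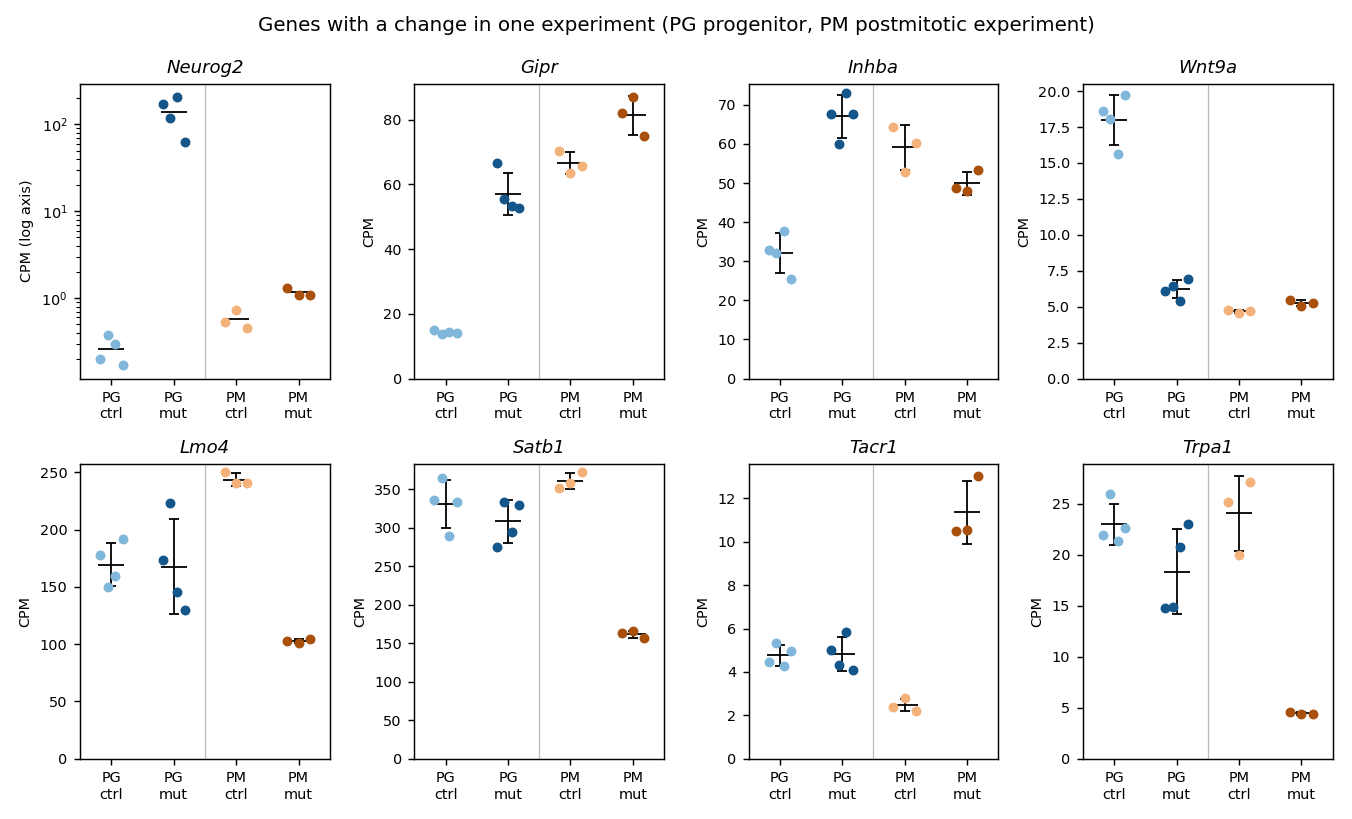
CPM of 8 genes with a called difference in each library (points), with group means and SD as bars, except for Neurog2, which is on a log axis without bars. Neurog2, Gipr, Inhba and Wnt9a separate in the progenitor experiment, and Lmo4, Satb1, Tacr1 and Trpa1 separate in the postmitotic experiment while their progenitor groups overlap.

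With NexCre, Satb1, Lmo3 and Lmo4 fell and Ldb2 rose, and their progenitor effects did not pass the test. Satb1 (chromosome 17, 51736187 to 51833290, minus strand), a chromatin organiser of cortical neurons, had 336, 365, 289 and 334 CPM in the progenitor controls and 276, 334, 294 and 329.9 CPM in the libraries labelled mutant. It had 352, 358 and 372 CPM in the postmitotic controls and 163, 165 and 157 CPM in the postmitotic libraries labelled mutant. The postmitotic libraries labelled mutant held less than the lowest control by a wide margin, whereas the progenitor groups overlapped. The postmitotic effect was -1.16 ± 0.08 (adjusted p = 7.97e-07), the progenitor effect -0.10 ± 0.07 with a 95% interval of -0.25 to 0.05, and the difference 1.05 ± 0.11 (adjusted p = 4.3e-05, edgeR). Ldb2 lost the called difference with Y-linked CPM as covariate (adjusted p = 0.136).

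Lmo3 and Lmo4, LIM-only genes, had the same pattern. Lmo4 (chromosome 3, 144188530 to 144205220, minus strand) had 178, 149.8, 159 and 192 CPM in the progenitor controls and 173, 223, 145 and 129.7 CPM in the libraries labelled mutant. In the postmitotic experiment it had 249.95, 241 and 241 CPM in controls and 103, 101 and 105 CPM in libraries labelled mutant. The progenitor libraries labelled mutant spread on both sides of their controls, and the postmitotic groups stood far apart. The difference was 1.23 ± 0.20 (adjusted p = 0.00460, edgeR). Lmo3 stood at 138 ± 6.87 CPM in postmitotic controls against 69.0 ± 8.92 CPM with NexCre (SD, n = 3 each). Its progenitor means were 98.7 and 103 CPM, and the difference was 1.06 ± 0.11 (adjusted p = 5.32e-05). Ldb2, the LIM cofactor, rose in the postmitotic libraries labelled mutant, with a difference of -1.09 ± 0.25 (adjusted p = 0.0254), a call lost without postmitotic control 2 or 3 or postmitotic mutant 1 or 2.

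Tacr1 rose and Trpa1 fell with NexCre. Tacr1 (chromosome 6, 82402334 to 82560104, plus strand), the substance P receptor, had 4.48, 5.33, 4.26 and 4.97 CPM in the progenitor controls, 4.99, 4.34, 5.85 and 4.08 CPM in the progenitor libraries labelled mutant, 2.41, 2.78 and 2.21 CPM in the postmitotic controls and 10.5, 10.5 and 13.0 CPM in the postmitotic libraries labelled mutant. Only the last group stood apart from its controls, with a postmitotic effect of 2.20 ± 0.17 and a difference of -2.18 ± 0.22 (adjusted p = 3.2e-05, edgeR). Trpa1, a cation channel, had 25.1, 19.97 and 27.1 CPM in postmitotic controls and 4.62, 4.39 and 4.38 CPM in libraries labelled mutant, against 21.96, 25.9, 21.4 and 22.6 and 14.7, 14.9, 20.8 and 22.98 CPM in the progenitor groups. The postmitotic effect was -2.43 ± 0.17, the progenitor effect -0.32 ± 0.13 (adjusted p = 0.0872) and the difference 2.10 ± 0.22 (adjusted p = 5.82e-05). Bmp2, a BMP ligand, followed with 10.9 ± 1.39 and 2.32 ± 0.524 CPM in the postmitotic groups (SD, n = 3 each) and a difference of 1.85 ± 0.24. Trpa1 and Bmp2 joined the shared class without progenitor mutant 4. Lifr, a cytokine receptor subunit, fell with a difference of 0.75 ± 0.09 and a progenitor interval of -0.12 to 0.12. Frzb, a secreted Wnt inhibitor, fell with a difference of 1.27 ± 0.26, and Sstr2, a somatostatin receptor, rose with one of -1.28 ± 0.22. The class of Sstr2 was kept in 7 of 14 fits without single libraries. Its postmitotic call was lost without postmitotic control 1, 2 or 3 or postmitotic mutant 1 or 2, and both effects passed with opposite signs without progenitor control 3 or progenitor mutant 2.

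Guidance and adhesion genes of the postmitotic set also moved both ways. Epha7, an ephrin receptor, had 91.9, 79.0 and 82.8 CPM in controls and 134, 146 and 147 CPM in libraries labelled mutant, while Efna5, an ephrin ligand, had 48.4, 51.0 and 51.1 and 31.3, 27.04 and 24.3 CPM. The receptor was higher and the ligand lower in each of the 3 libraries labelled mutant. The progenitor effects were 0.13 ± 0.07 and -0.04 ± 0.09, and the differences were -0.62 ± 0.11 (adjusted p = 0.00389) and 0.83 ± 0.14 (adjusted p = 0.00316, edgeR). Flrt3, an adhesion ligand of latrophilins whose gene lies within Macrod2 on the opposite strand, rose by 0.75 ± 0.10, with a progenitor interval of -0.18 to 0.19 and a difference of -0.74 ± 0.13. Sulf2, an extracellular heparan sulfate sulfatase, rose by 0.61 ± 0.08 with a progenitor interval of -0.12 to 0.16. Pdzrn4 and Fam160a1 rose with differences of -1.18 ± 0.18 and -1.68 ± 0.29, and Cyp2d22 fell with one of 1.13 ± 0.20. Gt(ROSA)26Sor, a transcript at a locus widely used for reporter alleles that lies opposite Thumpd3, rose by 1.82 ± 0.13 in the postmitotic experiment.

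Slc17a6, the vesicular glutamate transporter VGLUT2, fell with NexCre, where Slc17a7 did not pass. It had 77.1, 70.2, 65.3 and 62.8 CPM in the progenitor controls and 57.6, 51.1, 68.1 and 74.0 CPM in the libraries labelled mutant. The postmitotic groups had 75.2, 65.5 and 77.9 and 31.4, 31.3 and 40.5 CPM. The progenitor groups overlapped and the postmitotic groups did not, and the difference was 0.95 ± 0.18 (adjusted p = 0.00599, edgeR), opposite in sign to the -0.88 of Slc17a7.

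Promoter windows of 250 bases before the annotated start were read from RefSeq on GRCm38.p6 for 12248 of the tested genes, in a table of 300 bases per start. They were searched on both strands for TAATTA, the core that many homeodomain factors bind, and for CAGATG or its reverse complement CATCTG, an E-box that NEUROG2-type factors bind. A gene may have several windows and was counted if at least 1 of them held the match. TAATTA was found so for 390 of the 12248 genes (3.18%) and the E-box for 1518 (12.4%). Counted by single window, which is another unit, the shares were 4.84% and 14.4% of all 32851 windows of the table. Among postmitotic genes that rose, 8 of 25 held the E-box (32.0%) and 1 TAATTA (4%), and among those that fell 5 of 39 held the E-box (12.8%) and 3 TAATTA (7.69%). Among shared genes that rose and fell, 7 of 32 (21.9%) and 4 of 41 (9.76%) held the E-box, and 0 and 1 TAATTA. Among opposite genes higher and lower with Cre in progenitors, 2 of 12 and 1 of 9 held the E-box, and 0 and 1 TAATTA. Among progenitor genes the shares were 53 of 382 (13.9%) and 29 of 294 (9.86%) for the E-box and 11 (2.88%) and 12 (4.08%) for TAATTA, higher and lower genes in turn. The windows of 3 named genes of different patterns are printed because they hold a match, which is a description and not a site: Tbr1 (chr2:61804203-61804452, plus strand), Slc17a6 (chr7:51624387-51624636, plus strand, 1 of 2 windows) and Tacr1 (chr6:82402225-82402474, plus strand). Capitals mark the matches, which start 33 and 18 bases before the start of Tbr1, 205 (E-box) and 81 (TAATTA) bases before that of Slc17a6 and 36 bases before that of Tacr1.
Tbr1: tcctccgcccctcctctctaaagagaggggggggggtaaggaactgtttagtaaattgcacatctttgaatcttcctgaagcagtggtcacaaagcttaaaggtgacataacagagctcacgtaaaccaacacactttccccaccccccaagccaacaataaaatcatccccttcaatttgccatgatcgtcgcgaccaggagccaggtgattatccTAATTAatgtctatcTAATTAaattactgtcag
Slc17a6: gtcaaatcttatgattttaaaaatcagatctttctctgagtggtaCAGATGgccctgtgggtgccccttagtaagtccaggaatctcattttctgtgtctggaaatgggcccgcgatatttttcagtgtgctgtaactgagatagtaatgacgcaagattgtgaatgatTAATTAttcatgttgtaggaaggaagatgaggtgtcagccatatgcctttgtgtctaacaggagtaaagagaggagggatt
Tacr1: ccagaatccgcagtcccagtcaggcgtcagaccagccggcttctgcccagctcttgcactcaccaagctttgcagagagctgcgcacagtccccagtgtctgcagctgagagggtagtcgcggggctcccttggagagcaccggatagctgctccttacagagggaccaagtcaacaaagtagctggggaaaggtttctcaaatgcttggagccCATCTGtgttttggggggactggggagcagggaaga

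For 23 genes both effects passed with opposite signs, 13 higher with Cre in progenitors and lower with NexCre, and 10 the reverse. Rfk (chromosome 19, 17394043 to 17401349, plus strand), riboflavin kinase, which makes FMN from vitamin B2, had 50.3, 41.0, 42.2 and 49.7 CPM in the progenitor controls and 34.0, 33.8, 31.1 and 30.3 CPM in the libraries labelled mutant. It had 29.2, 31.8 and 33.4 CPM in the postmitotic controls and 46.6, 46.6 and 41.2 CPM in the postmitotic libraries labelled mutant. Every progenitor library labelled mutant was below its controls and every postmitotic one was above. The effects were -0.50 ± 0.08 and 0.51 ± 0.09, with a difference of -1.02 ± 0.12 (adjusted p = 0.000125, edgeR). Rfk kept its class without each of the 14 libraries in turn, and so did Loxl2.

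Loxl2 (chromosome 14, 69609068 to 69695834, plus strand), a lysyl oxidase that crosslinks collagen, went the other way. It had 4.44, 5.48, 6.93 and 4.33 CPM in the progenitor controls and 11.6, 10.03, 12.6 and 8.15 CPM in the libraries labelled mutant, and 11.6, 12.2 and 12.8 and 6.202, 6.79 and 3.92 CPM in the postmitotic groups. The groups did not overlap in either experiment, and the difference was 2.12 ± 0.27 (adjusted p = 0.000391, edgeR). L3mbtl3, a chromatin protein that reads methylated lysine, had effects of 0.35 ± 0.06 and -0.35 ± 0.07 and a difference of 0.70 ± 0.09. Ndst3, a heparan sulfate sulfotransferase, had effects of 0.94 ± 0.16 and -0.79 ± 0.19, and Hs3st1, which acts later on the same sugar, had the reverse signs at -0.31 ± 0.09 and 0.43 ± 0.10. Pip4k2a, a phosphoinositide kinase, read 0.24 ± 0.05 and -0.30 ± 0.06, Stk36, a serine kinase, 0.31 ± 0.07 and -0.37 ± 0.08, and Nwd2 0.22 ± 0.07 and -0.48 ± 0.08. Fndc9 had 0.44 ± 0.10 and -0.53 ± 0.12. Hs3st1 lost the called difference with Y-linked CPM as covariate (adjusted p = 0.0645).

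Secreted and signalling genes were in both directions. Olfm1, a secreted glycoprotein abundant in cortex, had 404, 404, 335 and 398 CPM in the progenitor controls and 252, 287, 273 and 279.8 CPM in the libraries labelled mutant. It had 266, 285 and 282 CPM in the postmitotic controls and 375, 339.9 and 339 CPM in the postmitotic libraries labelled mutant. All libraries labelled mutant lay below their controls in the first experiment and above in the second, a difference of -0.84 ± 0.10 (adjusted p = 0.000125, edgeR). Adcy2, an adenylyl cyclase that makes cyclic AMP, had 101, 101, 87.2 and 102 and 81.8, 80.5, 82.8 and 71.0 CPM in the progenitor groups and 57.3, 67.8 and 62.3 and 90.3, 78.7 and 82.5 CPM in the postmitotic groups. Its groups did not overlap, and the difference was -0.73 ± 0.11. Adcyap1, the peptide PACAP whose receptor raises cyclic AMP, had effects of the other signs, 0.39 ± 0.10 and -0.53 ± 0.11, and a difference of 0.92 ± 0.15 (adjusted p = 0.00188). Npas4, a factor induced by neuronal activity, rose by 0.43 ± 0.14 and fell by 0.71 ± 0.17 in the 2 experiments. Ddit4, an inhibitor of the growth kinase mTORC1, read -0.18 ± 0.05 and 0.30 ± 0.06, and Mff, a mitochondrial fission factor, -0.15 ± 0.05 and 0.23 ± 0.06. Thsd7b and Cdh13, the latter an adhesion protein of the cadherin family, had differences of -1.40 ± 0.21 and -0.96 ± 0.17, with progenitor groups that overlapped. Mff lost the called difference with Y-linked CPM as covariate (adjusted p = 0.0692).

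The opposite class depended on single libraries of both experiments. All 17 named opposite genes kept a called difference without each of the 14 libraries, but the class, which needs both effects, was kept in 9 of 14 fits for Olfm1, 11 for Adcy2, 11 for Adcyap1, 10 for L3mbtl3, 12 for Pip4k2a, 10 for Stk36, 10 for Nwd2, 10 for Ddit4, 9 for Fndc9, 5 for Npas4, 6 for Thsd7b, 5 for Cdh13, 4 for Ndst3, 4 for Hs3st1 and 2 for Mff. For Olfm1 it was lost without postmitotic control 1, 2 and 3 and postmitotic mutant 1 and 2, and for Adcy2 without postmitotic control 1 and 3 and postmitotic mutant 1. For Nwd2 it was lost without progenitor control 1 and 3 and progenitor mutant 2 and 4, all of them progenitor libraries, and for Thsd7b without progenitor control 2 and 4, progenitor mutant 1, 3 and 4, postmitotic control 2 and 3 and postmitotic mutant 1. The count of 23 was 7 without postmitotic control 2, 9 without postmitotic mutant 1, 10 without mutant 2, 12 without control 1 and 13 without control 3. Among progenitor libraries it was 14 without control 2, control 4 or mutant 3 and 15 without mutant 1.

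**Figure D3:**
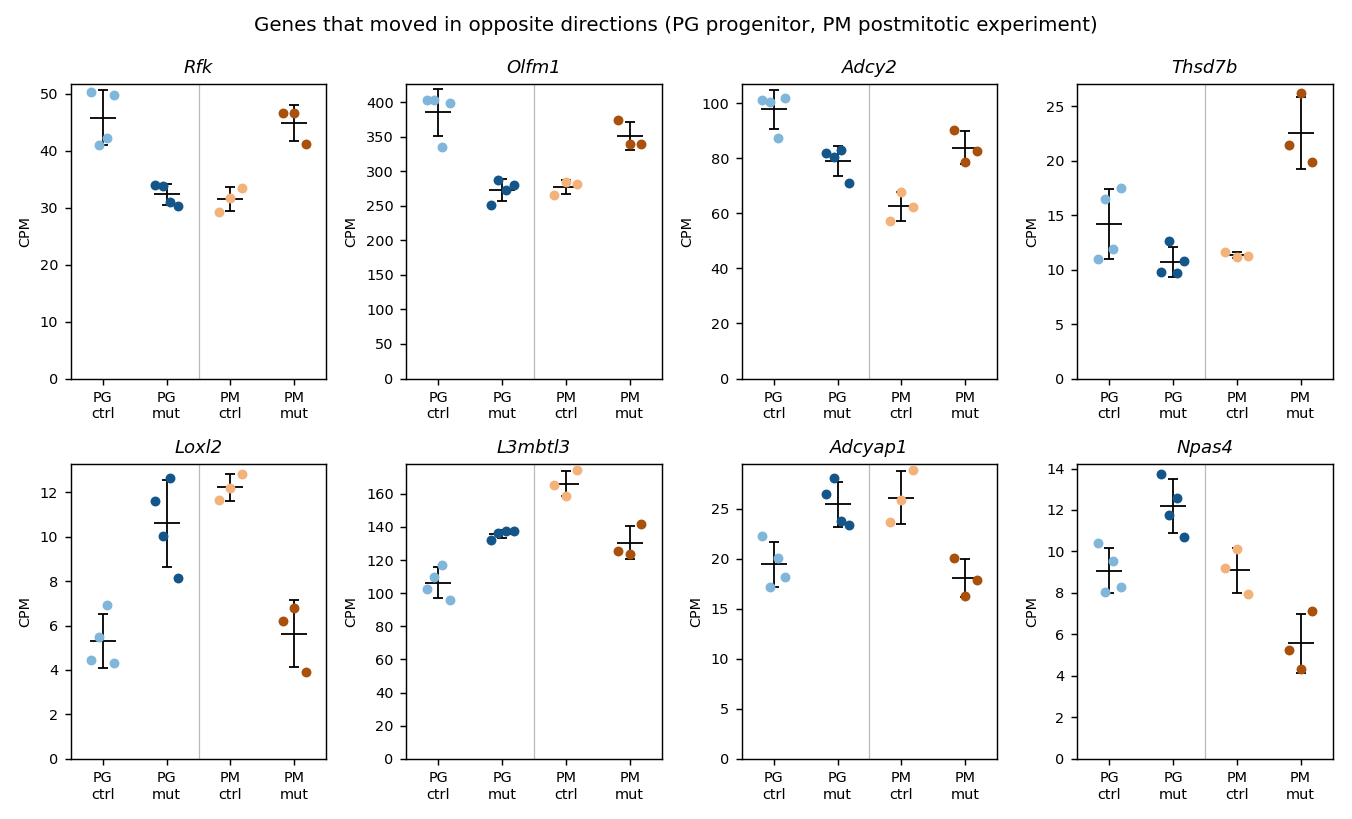
CPM of 8 genes with opposite effects in each library (points), with group means and SD as bars. Rfk, Olfm1, Adcy2 and Thsd7b are lower with Cre in progenitors and higher with NexCre, and Loxl2, L3mbtl3, Adcyap1 and Npas4 show the reverse.

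Among the 102 shared changes were Mn1, Vgll3 and Meis2, which rose, and Lypd1, Ddn, Camk2a and Chrm1, which fell. Mn1 (chromosome 5, 111417362 to 111457033, plus strand), a transcriptional cofactor, had 74.4, 85.7, 86.3 and 87.1 CPM in the progenitor controls and 147, 129, 129.8 and 116 CPM in the libraries labelled mutant. It had 109.8, 131 and 124 CPM in the postmitotic controls and 201, 219 and 206 CPM in the postmitotic libraries labelled mutant. Groups did not overlap in either experiment, the effects were 0.65 ± 0.07 and 0.78 ± 0.08, and the difference was -0.13 ± 0.11 with a 95% interval of -0.37 to 0.10. Vgll3, a cofactor of TEAD factors, rose by 1.33 ± 0.17 and 1.18 ± 0.18, with a wider interval of the difference, -0.36 to 0.67. Adgrl2, a latrophilin, rose by 0.78 ± 0.08 and 0.49 ± 0.09, Ttc28 by 0.88 ± 0.08 and 0.61 ± 0.09, and Ptprk, a receptor phosphatase, by 0.52 ± 0.06 and 0.41 ± 0.07. Chst15, a chondroitin sulfotransferase, rose by 0.50 ± 0.08 and 0.46 ± 0.09 and Sema4c, a semaphorin, by 0.42 ± 0.08 and 0.45 ± 0.09. None of these had a called difference, which does not show that the effects were equal. Chst15 lost its postmitotic call without postmitotic control 2, and Sema4c without postmitotic control 1 or postmitotic mutant 2.

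Meis2, a TALE homeobox factor, rose in both but unequally. It had 49.3, 60.9, 57.7 and 70.0 CPM in the progenitor controls, 80.3, 80.1, 77.2 and 81.3 CPM in the progenitor libraries labelled mutant, 75.9, 74.6 and 70.5 CPM in the postmitotic controls and 145, 150.05 and 145 CPM in the postmitotic libraries labelled mutant. The effects were 0.42 ± 0.08 and 0.996 ± 0.09 and the difference -0.57 ± 0.12 (adjusted p = 0.00750, edgeR). It is 1 of 9 shared genes with a called difference. The others, which fall outside the rule for named genes, were Adcy8, Barx2, Cadps2, Dock5, Fam163a, Gm3279, Hs6st2 and Igfbp5, and 8 of the 9 had the larger effect in the postmitotic experiment.

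Lypd1, a membrane modulator of nicotinic receptors that lies opposite Gpr39, had 70.0, 59.6, 58.7 and 66.0 CPM in the progenitor controls and 20.6, 22.9, 21.6 and 38.3 CPM in the libraries labelled mutant. It had 29.8, 28.9 and 32.9 CPM in the postmitotic controls and 6.202, 9.72 and 7.93 CPM in the postmitotic libraries labelled mutant. All libraries labelled mutant were lower, with effects of -1.30 ± 0.18 and -1.94 ± 0.23 and an unadjusted interval of the difference of 0.03 to 1.25 (adjusted p = 0.195). Ddn, dendrin, a postsynaptic protein of dendrites, fell by 0.71 ± 0.07 and 0.51 ± 0.08. Camk2a, the alpha subunit of the calcium/calmodulin kinase of excitatory synapses, fell by 0.81 ± 0.08 and 0.50 ± 0.09. Its means went from 674 to 385 CPM and from 284 to 201 CPM. Chrm1, the M1 muscarinic receptor, fell by 0.54 ± 0.07 and 0.49 ± 0.08, and Lrrtm3, a synaptic adhesion protein within Ctnna3 on the other strand, by 0.87 ± 0.07 and 0.64 ± 0.09. Dact2, an intracellular regulator of Wnt and Nodal signals, fell by 1.09 ± 0.17 and 1.42 ± 0.20, with Fam189a1 at -0.47 ± 0.06 and -0.43 ± 0.07 and Cpne7, a copine, at -0.46 ± 0.07 and -0.47 ± 0.09. The count of 102 was 66 without postmitotic control 1, 56 without control 2, 55 without control 3 and 50 without mutant 2.

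**Figure D4:**
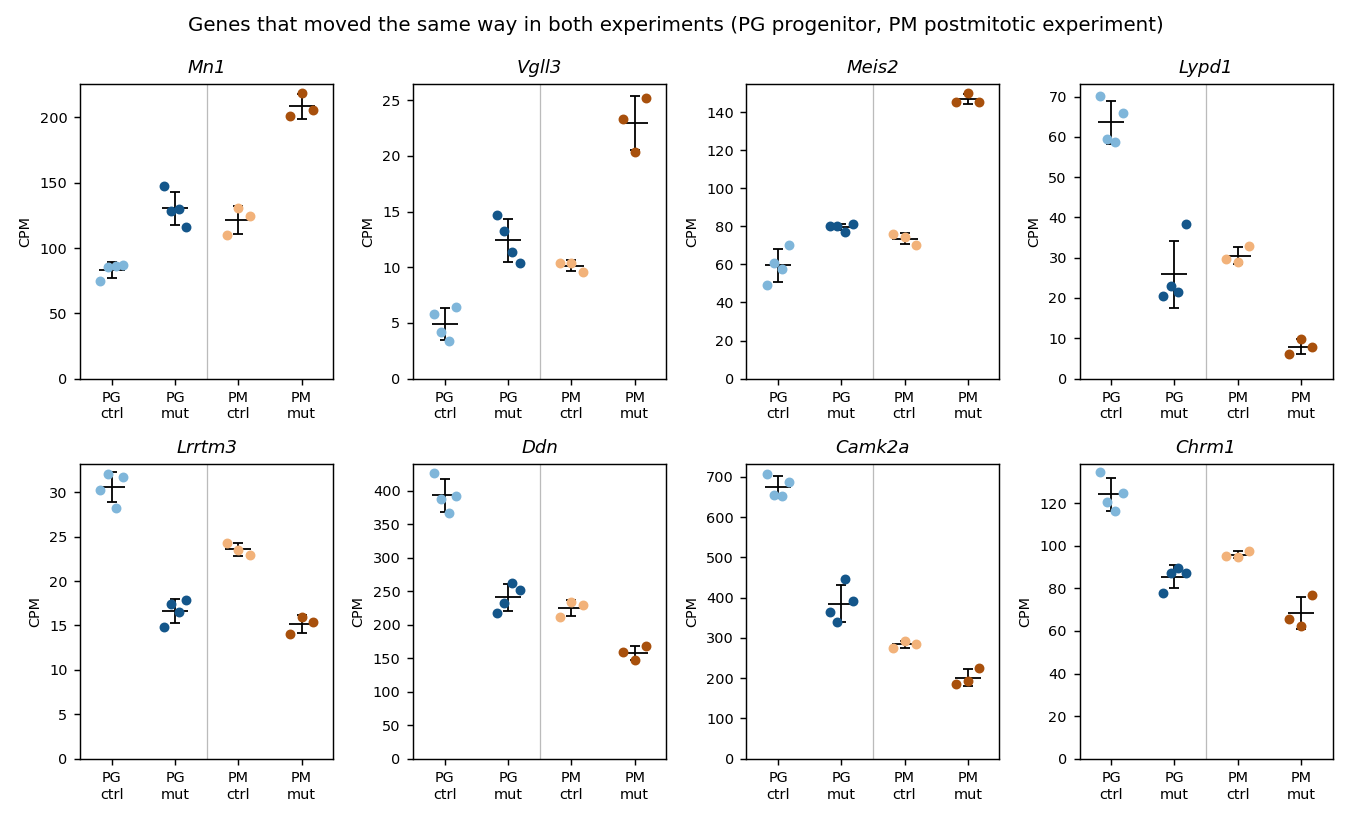
CPM of 8 genes with effects of the same sign in each library (points), with group means and SD as bars. Mn1, Vgll3 and Meis2 are higher and Lypd1, Lrrtm3, Ddn, Camk2a and Chrm1 lower in libraries labelled mutant of both experiments, with no overlap between the groups.

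Gene lists were read by counts and medians, beside 6.94% of all tested genes with a called difference and all-gene medians of 0.0059 (progenitor effect), 0 (postmitotic effect) and 0.0056 (difference). Of all tested genes, 12.5% passed as higher and 11.5% as lower in the progenitor experiment. In the postmitotic experiment 0.703% passed as higher and 0.965% as lower. Of 35 tested upper-layer genes, 9 had a called difference, 5 positive (Inhba, Rasgrf2, Lmo4, Mdga1 and Cadps2) and 4 negative (Cdh13, Otof, Cartpt and Calb1). The list's medians were -0.01 with Cre in progenitors and -0.04 with NexCre, with a median difference of -0.02, and the progenitor and difference medians changed sign with library sizes alone for scaling. Rasgrf2, a Ras exchange factor of layer II neurons, rose by 0.51 ± 0.06 with Cre in progenitors and read 0.05 ± 0.06 with NexCre. Of 36 deep-layer and subplate genes, 7 had a called difference, and 6 were negative: Thsd7b, Tbr1, Cplx3, Ldb2, Hs3st4 and Rprm, with Lmo3 positive. Their medians were -0.13 with Cre in progenitors and 0.25 with NexCre, with 8 members lower and 2 higher in the first and 1 lower and 2 higher in the second. The count went to 3 without postmitotic control 3 or postmitotic mutant 1 and to 4 without postmitotic control 1 or 2 or postmitotic mutant 2.

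Synaptic vesicle and release genes that passed with Cre in progenitors were mostly lower. Of 42 tested, 18 were lower and 4 higher in the progenitor experiment, where 11.5% of all genes were lower and 12.5% higher. In the postmitotic one 2 were lower, beside 0.965% of all genes. The difference passed for 9 (21.4%, beside 6.94% of all genes), of which 8 were negative. Sv2b, a vesicle glycoprotein, had effects of -0.59 ± 0.11 and 0.27 ± 0.13 and a difference of -0.86 ± 0.17 (adjusted p = 0.00837, edgeR), and Syt13, a synaptotagmin, had a difference of -0.58 ± 0.11. Medians were -0.20 with Cre in progenitors and -0.03 with NexCre. The 9 went to 4 without postmitotic control 1, 5 without postmitotic mutant 1 and to 14 without progenitor control 3. Of 41 excitatory synapse genes 14 were lower with Cre in progenitors and 5 with NexCre, beside the same shares of all genes. The difference passed for 3 (7.32%, near the 6.94% of all genes): Slc17a7, Slc17a6 and Dlgap3, a postsynaptic scaffold protein at -0.53 ± 0.11. Of 35 AMPA, NMDA and kainate receptor genes, 5 had a called difference, including the AMPA auxiliary subunit gene Cacng3 (-0.68 ± 0.14), the AMPA pore gene Gria3 (-0.49 ± 0.10), and the sorting receptor gene Sorcs1 (0.61 ± 0.13). The other two, Gsg1l and Grik4, were positive at 0.57 ± 0.13 and 0.62 ± 0.15. Dlgap3, Cacng3 and Sorcs1 lost the called difference with Y-linked CPM as covariate (adjusted p from 0.0542 to 0.103).

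Of 57 potassium channel genes, 19 were lower and 4 higher with Cre in progenitors, beside 11.5% and 12.5% of all genes. With NexCre 3 were lower, beside 0.965% of all genes. The difference passed for 7 (12.3%, beside 6.94% of all genes), with 6 negative. Kcnc4, a Kv3 subunit, differed by -0.95 ± 0.18, Kcnab2, an auxiliary subunit, by -0.61 ± 0.11 and Kcnj16, an inward rectifier, by 1.37 ± 0.21. The 7 went to 11 without postmitotic mutant 3. Of 29 sodium, calcium and HCN channel genes 5 had a called difference, including the calcium channel pore subunits Cacna1b (0.60 ± 0.12), Cacna1d (0.48 ± 0.11) and Cacna1g (0.41 ± 0.10) and the sodium channel gene Scn9a (0.99 ± 0.23). The 5 went to 2 without postmitotic control 1 or postmitotic mutant 1. Of 15 GABA-A receptor subunits 4 differed, including Gabrg3, Gabrb1 and Gabra2, and the count ranged from 0 to 4 without single libraries. It went to 0 without progenitor mutant 3, 1 without progenitor control 2 or 4 or postmitotic control 1, 2 or 3 and to 2 without progenitor control 1, progenitor mutant 1 or postmitotic mutant 1 or 2. Cacna1b, Cacna1d, Cacna1g, Gabrg3 and Gabrb1 lost the called difference with Y-linked CPM as covariate (adjusted p from 0.0621 to 0.184).

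Signalling lists were mixed in direction. Of 44 neuropeptide and peptide receptor genes 7 had a called difference (15.9%, beside 6.94% of all genes), 3 positive and 4 negative. Of 49 Wnt ligand, receptor and regulator genes 3 had one (6.12%, near the share of all genes), and of 21 Wnt/beta-catenin targets 0. Of those 21 targets, the 3 with the smallest p were Cd44, a hyaluronan receptor (-0.61 ± 0.18, adjusted p = 0.0507), Jun (-0.40 ± 0.13, 0.0668) and Myc (0.28 ± 0.10, 0.106), and the count went to 1 without progenitor mutant 3 or postmitotic mutant 2 and to 2 without progenitor control 3 or postmitotic mutant 3. Of the 49 Wnt genes, 5 were called in both experiments with the same sign, beside 0.652% of all genes. The count of called differences in the Wnt list went to 5 without progenitor control 3. The peptide and receptor genes include Gipr, Tacr1, Adcyap1 and Sstr2, whose values are given above, and outside the rule for named genes Crh, Cartpt and Tac2 at 0.87 ± 0.21, -1.68 ± 0.43 and -1.05 ± 0.27. Of 22 Eph receptors and ephrins 5 differed (22.7%, beside 6.94% of all genes), with Efna5 positive and Epha7, Efnb3, Epha5 and Efnb1 negative. That count went to 2 without progenitor control 4, progenitor mutant 1, postmitotic control 1 or 3 or postmitotic mutant 2 or 3 and to 3 without progenitor control 2 or progenitor mutant 2, 3 or 4. Efnb3 lost the called difference with Y-linked CPM as covariate (adjusted p = 0.0834).

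Dendrite growth and branching genes, which the study's question concerns, were called at shares near or under those of all genes for the progenitor effect and the difference. Of 80 tested, 12 were lower and 8 higher with Cre in progenitors (25.0%, beside 24% of all genes). The share called with NexCre was larger than that of all genes, with 5 lower and 1 higher, beside 0.965% and 0.703%. Both effects passed with the same sign for 4, beside 0.652% of all genes. The difference passed for 4. These were Lrp8, a reelin receptor (0.38 ± 0.09), Arhgap44, a Rac GTPase-activating protein (-0.40 ± 0.10), Celsr3, a multi-pass cadherin (0.48 ± 0.13), and Ctnnb1, beta-catenin (-0.27 ± 0.08). The 5.00% with a called difference stood beside 6.94% of all genes, and the count went to 0 without postmitotic control 1, 1 without progenitor control 4, progenitor mutant 1 or postmitotic mutant 1, 2 without postmitotic control 2 and to 8 without progenitor control 3. Of 33 proneural and differentiation factors 4 differed, all positive, including Neurog2, Neurod6 and Sox11, a SoxC factor (0.34 ± 0.10). The call for Sox11 was lost without progenitor control 1, 2 or 4, progenitor mutant 1 or 2, postmitotic control 1 or 3 or postmitotic mutant 1, 2 or 3. The list's count went to 1 without postmitotic control 3 and to 2 without progenitor mutant 1, postmitotic control 2 or postmitotic mutant 2. Lrp8, Arhgap44, Celsr3 and Sox11 lost the called difference with Y-linked CPM as covariate (adjusted p from 0.0932 to 0.216).

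Some markers of other cells were called as well, and their part in the results above was not tested. The difference passed for 13.8% of endothelial and mural genes and 13.6% of cell cycle genes, beside 6.94% of all genes. It passed for 7.41% of astrocyte and radial glia genes, 4.17% of microglial genes and 0% of interneuron genes, near or under the share of all genes. Of all genes, 12.5% were higher and 11.5% lower with Cre in progenitors. In that experiment 3 of 27 astrocyte and radial glia genes were higher and 7 lower, and 3 of 26 interneuron genes were higher and 6 lower. Of 24 microglial genes 0 were higher and 2 lower. With NexCre 0 members of these lists passed. Of 29 endothelial and mural genes 7 were higher with Cre in progenitors, 0 passed with NexCre and 4 had a called difference, all positive: Vwf of endothelium at 1.52 ± 0.22 (adjusted p = 0.00133, edgeR), and the mural genes Cspg4 (0.46 ± 0.12), Abcc9 (0.82 ± 0.21) and Rgs5 (0.65 ± 0.18). Their summed level was 662 to 1089 CPM in progenitor controls, 766 to 1262 in progenitor libraries labelled mutant, 526 to 609.7 in postmitotic controls and 494 to 622 in postmitotic libraries labelled mutant. The 4 went to 1 without progenitor control 4, progenitor mutant 1 or 3, postmitotic control 2 or postmitotic mutant 1 and to 2 without postmitotic control 1 or 3. Of 44 cell cycle genes 15 were higher and 1 lower with Cre in progenitors, and 6 had a called difference, 5 positive, among them Top2a, a topoisomerase of dividing cells (0.78 ± 0.20), Cenpf, a kinetochore protein (0.84 ± 0.20), and, negative, Mcm6, a replication helicase subunit (-0.47 ± 0.11). The list's medians were 0.26 with Cre in progenitors and -0.12 with NexCre. The 6 went to 1 without postmitotic control 1 or 2, 2 without progenitor control 1, 2 or 4, progenitor mutant 1 or postmitotic mutant 1 or 2, 3 without progenitor mutant 3 or 4, 11 without postmitotic mutant 3 and to 13 without progenitor control 3. Cspg4, Abcc9, Top2a, Cenpf and Mcm6 lost the called difference with Y-linked CPM as covariate (adjusted p from 0.0562 to 0.203).

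Of 24 microglial and macrophage genes 1 differed, Lgmn, a lysosomal protease (-0.32 ± 0.09), with medians of -0.35 with Cre in progenitors and -0.06 with NexCre and a summed level of 307 to 428 CPM in progenitor controls, 259 to 342 in progenitor libraries labelled mutant, 164 to 179.9 in postmitotic controls and 157 to 176 in postmitotic libraries labelled mutant. That count went to 0 without progenitor control 1, progenitor mutant 1, 2 or 3, postmitotic control 1 or 3 or postmitotic mutant 1. Of 27 astrocyte and radial glia genes 2 differed, Tnc, a matrix protein (1.05 ± 0.25), and Slc1a2, the glial glutamate transporter (-0.56 ± 0.15), and the count went to 0 without progenitor control 2, progenitor mutant 1, postmitotic control 1 or 2 or postmitotic mutant 2, 1 without progenitor control 4, progenitor mutant 3, postmitotic control 3 or postmitotic mutant 1, 4 without progenitor control 1 or progenitor mutant 4, 5 without postmitotic mutant 3 and to 7 without progenitor control 3. Of 26 interneuron genes 0 differed, with Gad1, which makes GABA, nearest at -0.39 ± 0.12 (adjusted p = 0.0511), and 2 differed without progenitor control 1 or control 3. Of 74 nuclear genes of oxidative phosphorylation 18 were lower with Cre in progenitors, beside 11.5% of all genes, and 0 with NexCre, beside 0.965%. The difference passed for 1 (1.35%, beside 6.94% of all genes), Atp5a1, an ATP synthase subunit (-0.30 ± 0.08, adjusted p = 0.0360, edgeR). This count went to 0 without progenitor control 1 or 4, progenitor mutant 1, 3 or 4, postmitotic control 1 or 2 or postmitotic mutant 1 or 2, 2 without progenitor control 3 and to 3 without postmitotic mutant 3. Lgmn, Tnc, Slc1a2 and Atp5a1 lost the called difference with Y-linked CPM as covariate (adjusted p from 0.102 to 0.215).

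**Figure D5:**
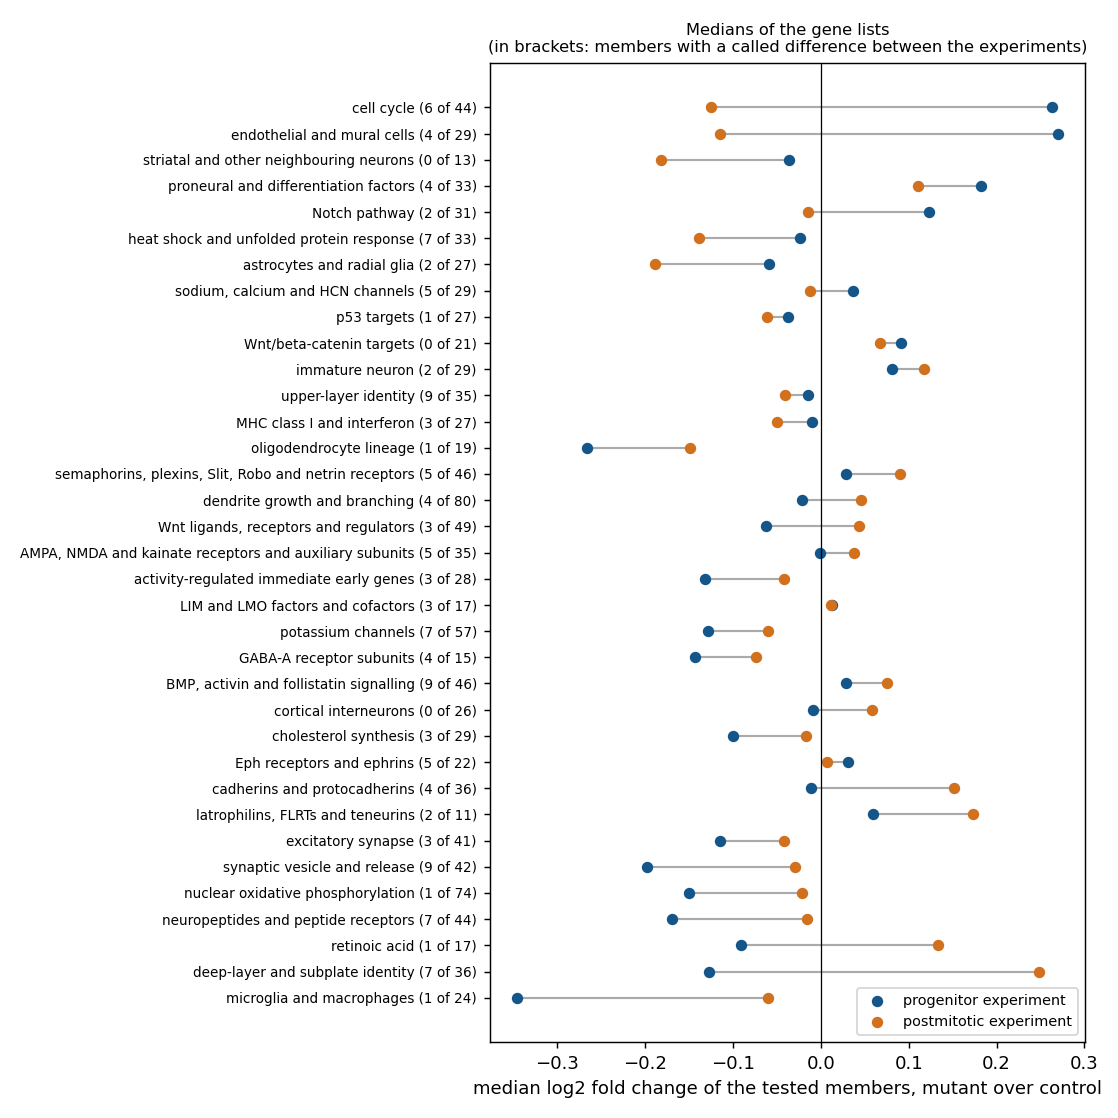
Median effect (x axis, log2) of each of 35 gene lists in the progenitor and postmitotic experiments, sorted by the median difference, with members called for the difference of members tested in brackets. The cell cycle list (0.26 and -0.12) and the endothelial list (0.27 and -0.11) lie at one end, and microglial genes (-0.35 and -0.06) and deep-layer genes (-0.13 and 0.25) at the other.

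The classes had different median gene lengths, which the sorting did not use. The median span in the GENCODE M21 annotation was 24.04 kb over the 15476 tested genes matched to it (98.9%). It was 26.9 and 27.8 kb for progenitor genes that rose and fell, 87.0 and 49.0 kb for postmitotic genes that rose and fell, 117 and 51.5 kb for shared genes that rose and fell, and 52.3 and 80.8 kb for opposite genes higher and lower with Cre in progenitors. X-linked genes were 3.13 and 3.31% of progenitor genes that rose and fell, against 3.59% of all tested. These are descriptions of sets that differ in size and in how well they are measured, and no test was made.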

How the data were processed

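Raw counts per gene were used as deposited by the authors in 2 tables, 1 per experiment. The labels' protocols name a directional NEBNext Ultra II kit with paired reads of 150 bases. The submitters' processing notes name HISAT2, featureCounts, DESeq2 and build mm10; versions, annotation and strand setting: not given in the sources used here. DESeq2 result tables deposited by the authors were not used, and 0 columns belonged to other samples.

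Tables were joined on 24690 shared symbols. In edgeR 4.0.16 (R 4.3.3), filterByExpr kept 15643 genes, and TMM scaling, robust quasi-likelihood fits and tests of the 3 contrasts followed, with Benjamini-Hochberg adjustment over all genes and calls at 0.05. Filtering and dispersion are shared by the 14 libraries, so single-experiment counts differ from separate fits (3534 progenitor and 361 postmitotic calls). CPM depend on the symbols kept, and a symbol counted under different annotations in the tables may cover different exons. The fit was tested on simulated data with known changes.

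Members, lists and tests were chosen with earlier results of these data known. Named genes are Lhx2, Neurod6, up to 8 genes per class and direction (ranked by p, at least 5 CPM, groups not overlapping, no predicted genes) and the 3 members of each of 36 lists with the smallest p of the difference, 150 in all. Other genes were named after their values were seen, and some genes of these lists are not reported here. Same-numbered libraries were not paired: correlations of their deviations ran from -0.39 to 0.095. Alternatives were DESeq2 1.42.0, limma 3.58.1 (voom), other scaling and filters, a replicate block, Y-linked CPM as covariate, thresholds and leaving out libraries.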

Additional observations from a re-analysis of the deposited data

Results flagged for a closer look

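Effects differed between the experiments for 1086 genes by the test of the difference itself. Among 38 genes picked for a closer look, the log2 difference of effects passed for 31. It passed for Rfk (-1.02), Olfm1 (-0.84), Loxl2 (2.12), L3mbtl3 (0.70), Adcy2 (-0.73), Adcyap1 (0.92), Npas4 (1.14), Thsd7b (-1.40) and Cdh13 (-0.96), whose effects were both called with opposite signs. It passed for Neurog2 (8.04), Gipr (1.70), Inhba (1.31), Fst (2.52), Wnt9a (-1.71), Slc17a7 (-0.88), Syn2 (-0.61), Cdkn1a (-1.35), Aacs (-0.96) and Tbr1 (-0.85), called with Cre in progenitors. It passed for Lmo4 (1.23), Satb1 (1.05), Lmo3 (1.06), Tacr1 (-2.18), Trpa1 (2.10), Bmp2 (1.85), Slc17a6 (0.95), Epha7 (-0.62), Efna5 (0.83) and Flrt3 (-0.74), called with NexCre. It also passed for Meis2 (-0.57), higher in both, and Neurod6 (1.10), called in neither alone.

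A single library stood apart from the other three of its group in 5 of 76 groups of 4 libraries, over 38 genes, where chance gives about 1 in 20. Olfm1 was 335 CPM in progenitor control 3 and Adcy2 87.2 CPM in the same library, below the other controls in both cases. Efna5 was 66.0 CPM in progenitor control 4, above the other controls. Mn1 was 74.4 CPM in progenitor control 1, below the others. Lypd1 was 38.3 CPM in progenitor mutant 4, above the others and below every control.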

How the results depend on the processing

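None of the 111 named genes with a called difference changed sign under any alternative run, and of the 39 without one, 6 did (Chrm1, Chst15, Cpne7, Fam189a1, Sema4c and Vgll3). The 1086 called differences were 598 to 1481 when single libraries were left out, the progenitor class (884) 492 to 1213, the postmitotic class (81) 43 to 129, shared changes (102) 50 to 153 and opposite changes (23) 7 to 33. DESeq2 called 1640 differences, 148 postmitotic, 203 shared and 45 opposite genes, 1062 of its differences being among the 1086. With Y-linked CPM as covariate these were 316 differences, 245 progenitor, 35 postmitotic, 60 shared and 15 opposite genes. At an adjusted p under 0.01 they were 292, 234, 29, 34 and 3. With single effects over 0.5 required, 399 progenitor, 36 shared and 4 opposite genes were found. Leaving out a progenitor number in both groups gave 551 progenitor genes (number 1), 15 opposite genes (number 2) and 668 differences, 509 progenitor and 12 opposite genes (number 4). With postmitotic libraries 1 and 2 only, the count of opposite genes was 22, but only 8 of the 23 were among them. The replicate block gave 659 differences and 514 progenitor genes, with other counts within 1.5 times. A similar count did not mean the same genes, since the block's 17 opposite genes held 6 of the 23. The numbers share no stated animal or day, and 1 of 7 same-numbered pairs correlated best with its own number. The cause of these moves was not tested, except that a stricter threshold leaves fewer calls by construction. Of 111 named genes with a called difference, 43 lost it with the Y-linked covariate, 17 with the block and 40 at 0.01. Depth limits genes of few counts, such as Neurog2 in progenitor controls and Hspb2, a small heat shock protein whose gene overlaps Cryab.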

Other observations

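Stress and lipid genes showed further differences. Of 33 chaperone and unfolded protein response genes 7 had a called difference (21.2%, beside 6.94% of all genes), 4 positive and 3 negative. Hsp90b1, a chaperone of the endoplasmic reticulum, had effects of 0.24 ± 0.05 and -0.20 ± 0.06 and a difference of 0.44 ± 0.08 (adjusted p = 0.00519, edgeR). Cryab, a small heat shock protein, had 61.4, 55.5, 38.3 and 60.8 CPM in the progenitor controls and 11.7, 14.6, 14.7 and 25.9 CPM in the progenitor libraries labelled mutant, and 14.4, 24.6 and 23.6 and 26.6, 20.6 and 20.2 CPM in the postmitotic groups. Its difference was -1.80 ± 0.39, a call lost without postmitotic mutant 1. The list's 7 went to 1 without postmitotic mutant 1, 3 without progenitor control 4, progenitor mutant 1, postmitotic control 1 or postmitotic mutant 2, 4 without progenitor control 2, progenitor mutant 2 or 3 or postmitotic control 3 and to 13 without postmitotic mutant 3. Cryab lost the called difference with Y-linked CPM as covariate (adjusted p = 0.102).

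Of 29 cholesterol synthesis genes 3 differed (10.3%, beside 6.94% of all genes), all negative, including Insig1, a sterol sensor (-0.45 ± 0.10) and Scd3, a fatty acid desaturase (-1.24 ± 0.30). Of 27 MHC class I and interferon genes 3 differed (11.1%). H2-K1, a class I heavy chain, had a difference of -1.46 ± 0.32, and H2-T24, which has similar copies in the MHC, one of 3.12 ± 0.49. Stat2, an interferon signal transducer, had one of 0.42 ± 0.12, a call lost without progenitor control 2 or 4, progenitor mutant 1, 2 or 3, postmitotic control 1 or 2 or postmitotic mutant 1 or 2. Insig1, Scd3, H2-K1 and Stat2 lost the called difference with Y-linked CPM as covariate (adjusted p from 0.0758 to 0.260).

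As a description with no test between tables, the postmitotic mean CPM over all 6 libraries was set beside the means of the progenitor groups. It lay nearer to the progenitor libraries labelled mutant than to the progenitor controls for 225 of 490 progenitor genes that rose (45.9%). The same held for 246 of 394 that fell (62.4%). The share over all tested genes was not computed. Neither percentage therefore has a baseline, and no conclusion about these genes was drawn from them.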
